A study of Mus musculus with 8 samples.

Results

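The histone genes of mouse pluripotent, neural and fused cells were examined in RNA libraries selected by their poly-A tails. Of the 24354 gene symbols listed, 83 were histone genes by their names: 67 begin with Hist and belong to the replication-dependent clusters (called Hist genes here), and 16 begin with H2af, H3f3 or H1f and are called variant genes here. One of the latter, H2afj, lies on chromosome 6 near the Hist gene Hist4h4. RNA sequencing covered 8 libraries, 2 for each of 4 groups, and the labels name no separate lines or cultures within a group, so the p-values below measure the spread between repeated libraries only. ESCs were wild-type E14 embryonic stem cells, grown with serum and LIF on mitomycin C-treated C3H mouse embryonic fibroblasts. NSCs were neural stem cells of OG2+/−/ROSA26+/− mice, which carry GFP under the distal enhancer of Oct4 and a ubiquitous lacZ, and were grown on gelatin with EGF and FGF2. EPSCs were wild-type extended pluripotent stem cells from C57BL/6 8-cell embryos, grown on the same kind of feeder cells in N2B27-LCDM medium (minocycline hydrochloride, dimethindene maleate, CHIR99021 and human LIF). Hybrid cells were EPSCs fused with NSCs by PEG, a near-tetraploid line picked by its Oct4-GFP and kept in the EPSC medium on feeder cells, so that cell type, medium and feeder cells cannot be told apart in the comparisons with NSCs.

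A histone gene of the replication-dependent kind is transcribed when DNA is copied, and its mRNA usually ends in a conserved stem-loop in place of a poly-A tail. The stem-loop binding protein SLBP holds this end, and the U7 snRNP with the cleavage factors cuts just behind it. Some of these genes also give a longer mRNA that runs past the stem-loop to a poly-A signal, a form known above all from cells that leave the cycle or differentiate. Variant histones such as H2A.Z, macroH2A and H3.3 come mostly from ordinary polyadenylated mRNAs that are made throughout the cycle. A library prepared with poly-T beads therefore takes up the mRNAs of the variants, and of the Hist genes mainly what carries a tail. Levels of Hist genes below are levels of RNA that passed this selection and are not total histone mRNA.

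The stem-loop was searched in the GENCODE M21 transcripts (GRCm38), as 6 paired bases around a loop of 4 with G and C in the outer 2 pairs, anywhere behind the last coding base. It was found in 45 of 66 coding Hist genes (68.2%), in 2 of 15 coding variant genes and in 3.02% of all coding genes. Of the Hist genes without a match, 17 have under 100 annotated bases after the coding part. A stem-loop beyond the annotated end would be missed, so these genes cannot be said to lack one. For each coding histone gene 1 transcript was searched, the longest coding one. In that of the abundant Hist gene Hist1h2bc, spliced from 2 exons, there was no match, and its other transcripts were not searched. The forms below are shown because their frequency differs between the histone classes and several belong to abundant Hist genes. They were read at chr13:23739512-23739527 (plus strand) for Hist1h1c, chr11:58955172-58955187 (plus) for Hist3h2a, chr13:23745047-23745062 (minus) for Hist1h3c, chr13:22040966-22040981 (minus) for Hist1h4i, chr13:23581950-23581965 (plus) for Hist1h4d, chr13:23757366-23757381 (plus) for Hist1h4b and chr9:44335240-44335255 (plus) for the variant H2afx. Each lies in the annotated 3′ UTR, is written 5′ to 3′ in the DNA letters of the transcript, and has the loop in capitals.
Hist1h1c: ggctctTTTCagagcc
Hist3h2a: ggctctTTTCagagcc
Hist1h3c: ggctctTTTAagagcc
Hist1h4i: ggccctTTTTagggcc
Hist1h4d: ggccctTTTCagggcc
Hist1h4b: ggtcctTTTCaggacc
H2afx: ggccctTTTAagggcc
The form of Hist1h1c and Hist3h2a was the most frequent, in 25 genes of the H1, H2A, H2B and H3 classes and in no H4 gene. Among H4 genes 7 carried the hairpin of Hist1h4d, 2 that of Hist1h4i, 2 that of Hist1h4b and 1, Hist1h4a, another loop. The paired bases of Hist1h4d and Hist1h4i are the same, and H2afx has them too. The loop began with T in 45 of 45 Hist genes. H2afx has a hairpin of this histone type, and H2afj, the other variant with a match, has one with a loop that does not begin with T.

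The H2A and H2B genes often lie head to head, so that one stretch of DNA serves as promoter for both. Among the Hist genes, 13 neighbouring pairs on opposite strands had their starts within 1000 bases. Shown are the 250 bases before the start of Hist1h2ac (RefSeq, GRCm38.p6, chr13:23683960-23684209, minus strand), which face the divergent Hist1h2bc, and those before Hist1h2bk (chr13:22035571-22035820, plus strand), which face Hist1h2ah and, by the RefSeq start of that gene, overlap its first bases. Capitals mark 3 motifs, which do not overlap here and are marked on either strand, so that a reverse complement stands in capitals too. The first motif searched was TATAAA, known from core promoters. Another was CCAAT, which the factor NF-Y binds. The last was the octamer ATTTGCAT, which POU factors bind.
Hist1h2ac: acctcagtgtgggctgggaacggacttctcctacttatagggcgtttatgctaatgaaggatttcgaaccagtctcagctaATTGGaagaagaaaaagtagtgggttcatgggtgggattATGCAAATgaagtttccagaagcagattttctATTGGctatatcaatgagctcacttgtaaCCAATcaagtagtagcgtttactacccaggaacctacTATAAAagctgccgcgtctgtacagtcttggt
Hist1h2bk: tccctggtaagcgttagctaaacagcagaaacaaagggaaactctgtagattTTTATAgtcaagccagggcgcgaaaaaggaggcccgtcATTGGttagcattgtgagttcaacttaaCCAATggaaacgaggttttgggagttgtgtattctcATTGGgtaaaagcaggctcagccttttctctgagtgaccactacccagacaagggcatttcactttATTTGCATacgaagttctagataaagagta
Over windows of 300 bases (250 before and 50 after the start), TATAAA was found in 58.3% of 60 Hist promoters, 7.69% of 13 variant promoters and 14.2% of all 27025 promoters in the table. CCAAT was found in 85.0% of Hist promoters, 69.2% of variant promoters and 37.9% of all, in each of the H1, H2A, H2B and H3 promoters, and in 3 of 12 H4 promoters. ATTTGCAT was found in 21.7% of Hist promoters, 7.69% of variant promoters (1 of 13) and 1.75% of all, in 7 of 17 H2A and 6 of 15 H2B promoters and in none of the other classes. A match of letters is a description and not a binding site.

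The deposited values are FPKM, which count fragments relative to transcript length and to the size of the library. The depth, estimated from the steps between low values (73.1% to 81.2% of which came within 0.1 of a whole fragment), was 22.0 to 32.6 M (1000000 fragments) per library, at which 3 fragments on a transcript of 500 bases correspond to 0.307 to 0.455 FPKM. These floors cover counting error only, and most Hist genes lay near them. FPKM summed to about 415240 in the NSC libraries and to 600674 to 653796 in the other libraries. Scaling every library to a sum of 1000000 moved the median log2 difference of all genes from 0.06 to −0.51 for hybrid cells against NSCs, from 0.08 to −0.48 for EPSCs and from 0.03 to −0.47 for ESCs, so that called directions of named genes against NSCs which turn with this scaling are marked below. The markers went with the labels: Pou5f1 was listed at 0 in both NSC libraries and at 741.6 to 1106 FPKM in the others, whereas Fabp7 was at 2798 and 2709 in NSCs and at most 0.238 elsewhere. The summed FPKM of 10 fibroblast genes (Col1a1, Postn, Dcn and others) was 11.8 to 13.0 in ESCs, 1.21 to 1.36 in NSCs, 84.1 to 87.5 in EPSCs and 248 to 333 in hybrid cells, and Col1a2, Lum and Twist2 were listed at 0 in both NSC libraries. The feeder cells' part in the histone values was not tested, and in such bulk RNA fewer cells of a type cannot be told apart from less RNA per cell.

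The summed level of the Hist genes was below that of the variant genes in every library. Summed over the 67 genes, Hist FPKM was 64.4 and 67.8 in ESCs, 158 and 144 in NSCs, 104 and 110 in EPSCs, and 141 and 146 in hybrid cells. The ESC libraries were the lowest and did not overlap with those of any other group, and NSCs and hybrid cells overlapped. After scaling to a common sum the group means were 363.8 in NSCs, 224.4 in hybrid cells, 168.2 in EPSCs and 108.5 in ESCs, and NSCs and hybrid cells did not overlap, at 0.0381% and 0.0347% against 0.0218% and 0.0230% of library FPKM. The 16 variant genes summed to 2025 and 2027 in ESCs, 1590 and 1578 in NSCs, 2378 and 2179 in EPSCs, and 2036 and 2120 in hybrid cells, so here NSCs were lowest in FPKM, whereas after scaling they were highest, at 3829 and 3798 against 3166 to 3638 in the other libraries. Variant FPKM exceeded Hist FPKM by 31.5 and 29.9 times in ESCs, 22.8 and 19.9 times in EPSCs, 14.5 and 14.5 times in hybrid cells, and 10.1 and 11.0 times in NSCs. With 2 libraries against 2, an exact permutation test cannot give a two-sided p below 0.333, so these sums are given without a test.

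**Figure D1:**
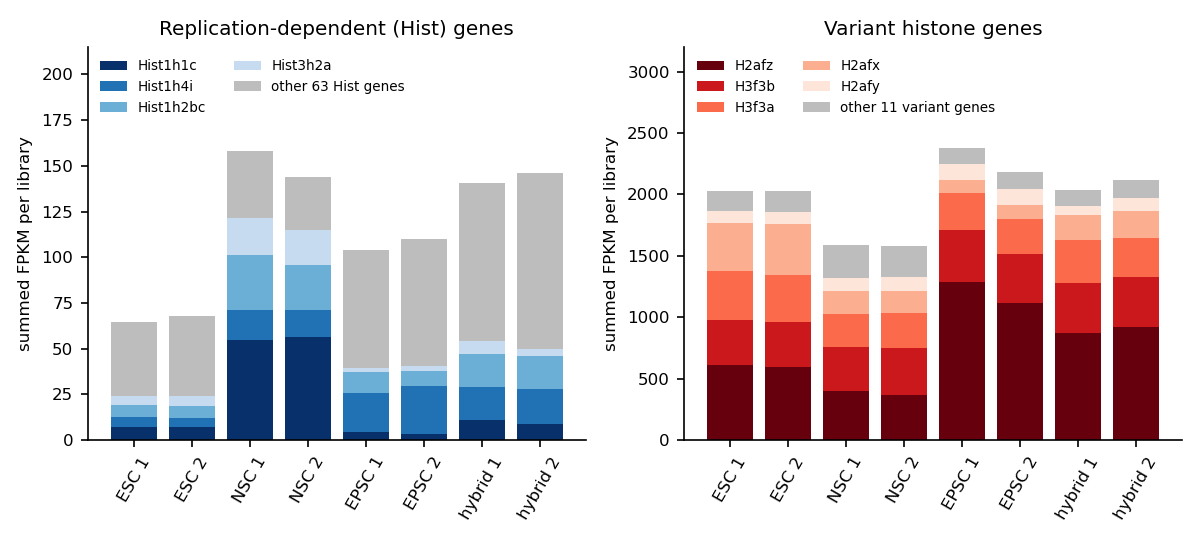
Summed FPKM in each of the 8 libraries (bars, linear axes from 0), on the left for the 67 Hist genes and on the right for the 16 variant genes, with the most abundant genes stacked in colour. Hist1h1c, Hist1h4i, Hist1h2bc and Hist3h2a make up 76.9% and 79.9% of the Hist sum in NSCs and at most 38.6% in the other libraries.

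Most of the NSC sum came from 4 genes. Hist1h1c, which encodes a linker histone of the H1 class, Hist1h4i (H4), Hist1h2bc (H2B) and Hist3h2a (H2A) held 76.9% and 79.9% of Hist FPKM in the NSC libraries, 37.2% and 35.3% in ESCs, 37.7% and 36.8% in EPSCs, and 38.6% and 34.0% in hybrid cells. They were taken for their mean over the 8 libraries, and 3 of them (Hist1h1c, Hist1h2bc and Hist3h2a) were highest in NSCs, so that leaving them out lowers the NSC sum by that choice. The other 63 genes summed to 36.6 and 29.0 FPKM in NSCs, 40.4 and 43.9 in ESCs, 64.9 and 69.4 in EPSCs, and 86.3 and 96.5 in hybrid cells, which is given as a description. After scaling, NSCs were at 88.1 and 69.7 and overlapped with ESCs at 65.4 and 73.0, below EPSCs at 99.2 and 112 and hybrid cells at 134 and 152. The number of Hist genes at 1 FPKM or more was 11 and 9 in NSCs, 17 and 17 in ESCs, 28 and 26 in EPSCs, and 31 and 31 in hybrid cells.

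Hist1h1c had the highest mean of all Hist genes. It was at 54.6 and 56.5 FPKM in NSCs, 6.95 and 6.97 in ESCs, 4.53 and 3.38 in EPSCs, and 11.1 and 8.68 in hybrid cells, and no 2 groups overlapped. Its level in NSCs was 14 times that in EPSCs, with a log2 fold change of −3.52 ± 0.14 (SE) for EPSCs against NSCs and a Benjamini-Hochberg adjusted p of 1.65e-07 in limma. Hybrid cells stood 2.50 times above their EPSC parent (1.14 ± 0.14, adjusted p = 0.000931 in limma) and still 5.62 times below the NSC parent. These 3 differences were called under all 16 alternatives.

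Hist1h2bc was next in NSCs among the genes that NSCs had most of. It was at 30.0 and 24.2 FPKM in NSCs, 18.5 and 18.2 in hybrid cells, 11.0 and 8.15 in EPSCs, and 6.44 and 6.47 in ESCs. These 4 groups did not overlap. The limma adjusted p was 3.52e-05 for EPSCs against NSCs and 0.00275 for hybrid cells against EPSCs, where the log2 fold change was 0.88 ± 0.14 (SE). Between hybrid cells and NSCs the change was −0.53 with an adjusted p of 0.00881, and −0.38 with an adjusted p of 0.079 without NSC replicate 1. Between EPSCs and ESCs it was 0.49 with an adjusted p of 0.019, which was 0.0887 without EPSC replicate 1, 0.0841 without ESC replicate 1 and 0.0799 without ESC replicate 2.

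Hist3h2a and Hist3h2ba, an H2A and an H2B gene of the small cluster on chromosome 11, had their highest level in NSCs too. Hist3h2a was at 20.1 and 19.6 FPKM in NSCs, 5.08 and 5.35 in ESCs, 2.33 and 2.78 in EPSCs, and 7.01 and 3.68 in hybrid cells. Hist3h2ba was at 8.65 and 6.29 in NSCs, 3.31 and 2.40 in ESCs, 0.925 and 1.04 in EPSCs, and 1.02 and 0.521 in hybrid cells. Both were called higher in NSCs than in each other group by limma, with adjusted p values between 1.2e-05 and 0.00076. The 2 genes differed in hybrid cells: Hist3h2a was higher than in EPSCs (0.78, adjusted p = 0.0247, called under 9 of 16 alternatives, and at 0.103 and 0.0518 without EPSC replicates 1 and 2, at 0.0515 without ESC replicate 1, and at 0.0606 and 0.0597 without NSC replicates 1 and 2), whereas Hist3h2ba was at −0.18 with an adjusted p of 0.485. Of the 100-base windows of the Hist3h2a transcript, 29.8% are shared with Trim17, which was at most 0.236 FPKM.

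Hist1h4i broke with this order in FPKM, whereas after scaling its mean was highest in NSCs. It was at 21.4 and 26.0 FPKM in EPSCs, 17.6 and 19.2 in hybrid cells, 16.8 and 14.8 in NSCs, and 5.50 and 5.14 in ESCs. ESCs thus had the least of it, by 1.96 ± 0.11 (SE) on the log2 scale against EPSCs, with an adjusted p of 1.22e-05 in limma. On log2(FPKM + 1) it was the Hist gene with the largest rise from ESCs to EPSCs. The 1 added there limits the rise of genes that ESCs listed at 0. For Hist1h4i, EPSCs were also above NSCs by 0.55 (adjusted p = 0.00169 in limma), a difference that was −0.03 after scaling to a common sum. Hybrid cells were above ESCs (1.62, adjusted p = 1.89e-05) and ESCs below NSCs (−1.41, adjusted p = 7.29e-06) under all 16 alternatives. The difference of hybrid cells below EPSCs, −0.34 with an adjusted p of 0.0369, was called under only 6 of 16 alternatives. Its adjusted p was 0.164 without EPSC replicate 2, 0.13 without hybrid replicate 1, 0.0668 and 0.0657 without ESC replicates 1 and 2, and 0.0599 and 0.059 without NSC replicates 1 and 2.

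The other Hist genes of the chromosome 13 cluster mostly ran the opposite way to Hist1h1c. Hist1h3c, an H3 gene, was at 0.246 and 0.261 FPKM in NSCs, 2.62 and 3.88 in ESCs, 9.47 and 13.4 in EPSCs, and 10.6 and 14.3 in hybrid cells. Its NSC level lay under the value of 3 fragments on a 500-base transcript, and EPSCs and hybrid cells overlapped. Hist1h2bk, an H2B gene, was at 0.459 and 0.121 in NSCs, 1.89 and 1.32 in ESCs, 4.64 and 3.31 in EPSCs, and 7.65 and 6.34 in hybrid cells, with no overlap. Hist1h3a was at 0.456 and 0.241 in NSCs, 1.50 and 0.908 in ESCs, 1.43 and 2.69 in EPSCs, and 3.80 and 6.15 in hybrid cells. Hist1h2ae, Hist1h4b, Hist1h2bm, Hist1h1a, Hist1h3h and Hist1h2bj showed the same order of group means in FPKM (Hist1h2bm was lowest in ESCs after scaling), with NSCs at 0.0633 to 0.494 FPKM and hybrid cells at 2.87 to 4.25.

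**Figure D2:**
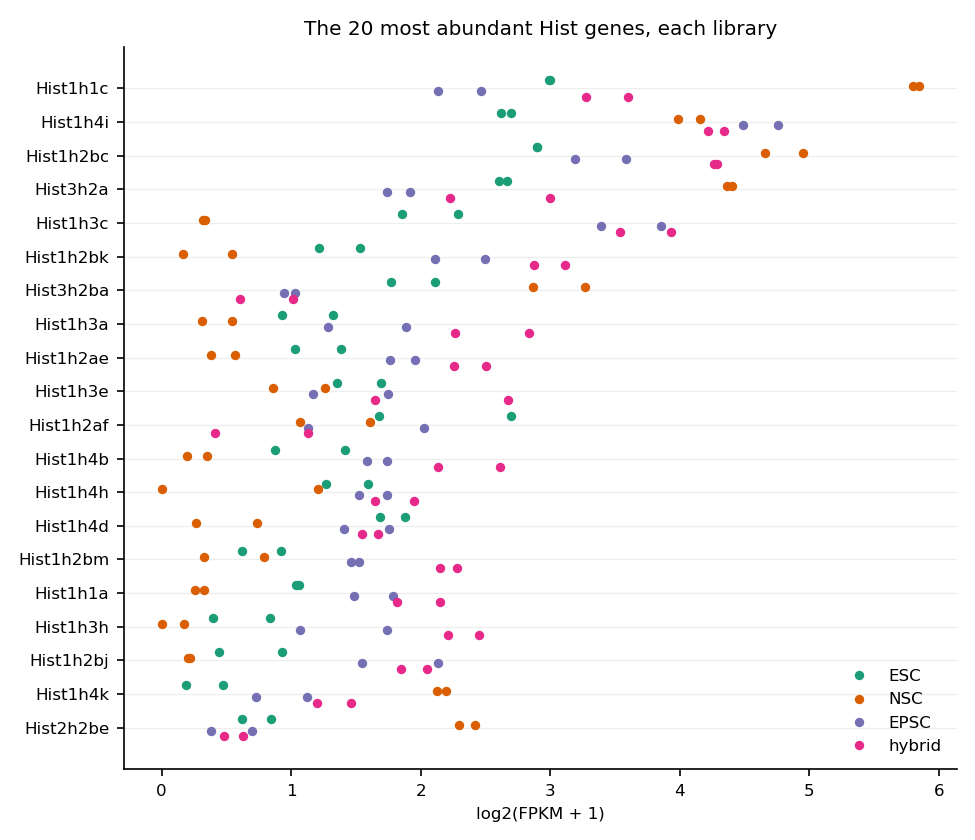
log2(FPKM + 1) of the 20 Hist genes with the highest mean over the 8 libraries (1 row a gene, 1 point a library, coloured by group, most abundant at the top). NSC points lie to the right for Hist1h1c, Hist1h2bc, Hist3h2a, Hist3h2ba, Hist1h4k and Hist2h2be and to the left for most other genes.

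The rest of the 20 most abundant genes followed several orders. Hist1h2af reached its highest level, 5.497 FPKM, in ESC replicate 2, lay at 2.05 and 1.09 in NSCs, 3.07 and 1.19 in EPSCs, and 0.332 and 1.19 in hybrid cells, and was lower in the other ESC library than in an EPSC library, so that its libraries differed within each group about as much as between groups. Its only call was hybrid cells below ESCs (−1.42 ± 0.43, adjusted p = 0.0221 in limma, 0.145 without ESC replicate 2 and 0.119 without hybrid replicate 1). Hist1h3e ran from 0.813 in an NSC library to 5.39 in a hybrid library, Hist1h4h from 0 in an NSC library to 2.86, and Hist1h4d from 0.201 in an NSC library to 2.68 in an ESC library. Hist1h4k, an H4 gene, was at 3.59 and 3.37 in NSCs against 0.139 to 1.76 elsewhere. Hist2h2be, an H2B gene known from olfactory neurons, was at 4.36 and 3.92 in NSCs against 0.306 to 0.798 elsewhere. The limma test called both of them higher in NSCs than in each other group, with adjusted p values up to 0.00158.

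A gene was tested with limma on log2(FPKM + 1) where its mean reached 1 FPKM in at least 1 group. This kept 34 of 67 Hist genes, 10 of 16 variant genes and 13239 of all genes. A low gene passes this filter only through its highest group, so counts over the genes that passed describe them and not all members. Of the 34, NSCs had the lowest mean for 24 and the highest for 6 (Hist1h1c, Hist1h2bc, Hist3h2a, Hist3h2ba, Hist2h2be and Hist1h4k). Hybrid cells had the highest mean for 21, EPSCs for 4 and ESCs for 3. Over all genes tested, NSCs were lowest for 42.9% and highest for 39.7%, and hybrid cells were highest for 20.8%, ESCs for 20.5% and EPSCs for 19.0%. After scaling, NSCs were lowest for 20 of the 34 (28.6% of all genes) and highest for 7 (55.2%), and hybrid cells highest for 21 (15.1%). A gene was called at an adjusted p under 0.05, and the 6 comparisons share their groups with each other.

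Hybrid cells against EPSCs, the parent whose medium they share, gave the fewest calls of Hist genes. Of 34 Hist genes, 11 were higher in hybrid cells and 1, Hist1h4i, was higher in EPSCs, beside 44.4% of all genes called in either direction 22.5% called higher in hybrid cells and 21.9% called higher in EPSCs. The median log2 difference was 0.28 over Hist genes, 0.02 over variants and 0.00 over all genes. The largest were Hist1h1c (above), Hist1h3a (0.97 ± 0.26, adjusted p = 0.0204 in limma) and Hist1h3h (0.92 ± 0.23, adjusted p = 0.0164). Without EPSC replicate 1 the adjusted p of Hist1h3a was 0.1, and without hybrid replicate 2 it was 0.0899. Hist1h3h stood at 0.0612 without EPSC replicate 2 and at 0.0707 without hybrid replicate 1. Calls numbered 12, against 6 without EPSC replicate 2, 6 with a pseudocount of 0.1, and 4 where the fit held the 2 groups alone. All 10 fibroblast genes were also called higher in hybrid cells, and their part in these differences was not tested.

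Against NSCs, the other parent, hybrid cells had higher levels of most Hist genes that passed the filter and lower levels of a few abundant ones. Of 34, 21 were higher in hybrid cells and 6 higher in NSCs, beside 86.5% of all genes called (44.5% higher in hybrid cells and 42.0% in NSCs), and the median log2 difference was 0.95 (0.88 after scaling). Hist1h3c rose most (3.41 ± 0.21, adjusted p = 1.87e-06 in limma), then Hist1h2bk (2.64 ± 0.19, adjusted p = 4.73e-06) and Hist1h3h (2.24 ± 0.23, adjusted p = 4.28e-05). Hist1h2ag, an H2A gene, was listed at 0 in both NSC libraries and at 3.26 and 2.17 FPKM in hybrid cells. The largest in the other direction were Hist1h1c (−2.39 ± 0.14, adjusted p = 1.31e-06), Hist3h2ba (−2.26 ± 0.19, adjusted p = 1.2e-05) and Hist2h2be (−1.81 ± 0.13, adjusted p = 4.59e-06). These were called under all 16 alternatives.

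EPSCs differed from NSCs along the same lines before fusion. Of 34 Hist genes, 18 were higher in EPSCs and 6 higher in NSCs (86.2% of all genes called, 45.2% higher in EPSCs and 41.0% in NSCs), with a median log2 difference of 0.79. Hist1h3c (3.29 ± 0.21, adjusted p = 2.31e-06 in limma), Hist1h2bk (1.95 ± 0.19, adjusted p = 2.9e-05) and Hist1h2ag, which NSCs listed at 0, were highest. Hist1h1c, Hist3h2a (−2.55 ± 0.22, adjusted p = 1.43e-05) and Hist3h2ba (−2.08 ± 0.19, adjusted p = 1.98e-05) were lowest. The 6 genes higher in NSCs were the same as for hybrid cells against NSCs, a comparison with the same NSC libraries.

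ESCs differed from NSCs in both directions too. Of 34 Hist genes, 13 were higher in ESCs and 7 higher in NSCs (84.7% of all genes called, 42.8% higher in ESCs and 41.9% in NSCs), with a median of 0.45. Hist1h3c (1.75 ± 0.21, adjusted p = 0.000102 in limma), Hist1h4d (1.28 ± 0.18, adjusted p = 0.000266) and Hist1h2bk (1.02 ± 0.19, adjusted p = 0.00135) were highest. Hist1h1c (−2.83 ± 0.14, adjusted p = 5.39e-07), Hist1h2bc (−1.90 ± 0.14, adjusted p = 6.25e-06) and Hist1h4k (−1.83 ± 0.16, adjusted p = 1.62e-05) were lowest. The 7 genes higher in NSCs were the 6 named before and Hist1h4i.

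The pluripotent lines also differed from each other, in the fibroblast genes too. Of these 10 genes, 9 were called higher in EPSCs than in ESCs and 10 in hybrid cells than in ESCs. Their part in the Hist differences was not tested. ESCs also differed from EPSCs and hybrid cells in origin and in medium, so line, medium and cell state cannot be told apart in these comparisons. Of 34 Hist genes, 13 were higher in EPSCs and 4 higher in ESCs (61.0% of all genes called, 33.7% higher in EPSCs and 27.3% in ESCs, median 0.48), and 21 were higher in hybrid cells than in ESCs and 2 lower (65.5% of all genes called, 35.3% higher in hybrid cells and 30.2% in ESCs, median 0.72). In EPSCs against ESCs, Hist1h4i (1.96, above) and Hist1h3c (1.55 ± 0.21, adjusted p = 0.000587 in limma) rose most, and Hist1h4c was listed at 0 in both ESC libraries and at 0.855 and 3.43 FPKM in EPSCs. Hist3h2ba (−0.95 ± 0.19, adjusted p = 0.00378), Hist3h2a (−0.81 ± 0.22, adjusted p = 0.0154) and Hist1h1c (−0.69 ± 0.14, adjusted p = 0.00354) fell. The call of Hist3h2a was lost without EPSC replicate 1 (adjusted p = 0.0731), ESC replicate 1 (0.0642) or ESC replicate 2 (0.0776), and of the 17 Hist calls 11 were made without EPSC replicate 1 and 10 without ESC replicate 2. In hybrid cells against ESCs, Hist1h3h (1.71 ± 0.23, adjusted p = 0.000492), Hist1h3c (1.66 ± 0.21, adjusted p = 0.000331) and Hist1h2bk (1.62 ± 0.19, adjusted p = 0.000232) rose most, and the 2 that fell were Hist1h2af and Hist3h2ba (−1.13 ± 0.19, adjusted p = 0.00142).

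**Figure D3:**
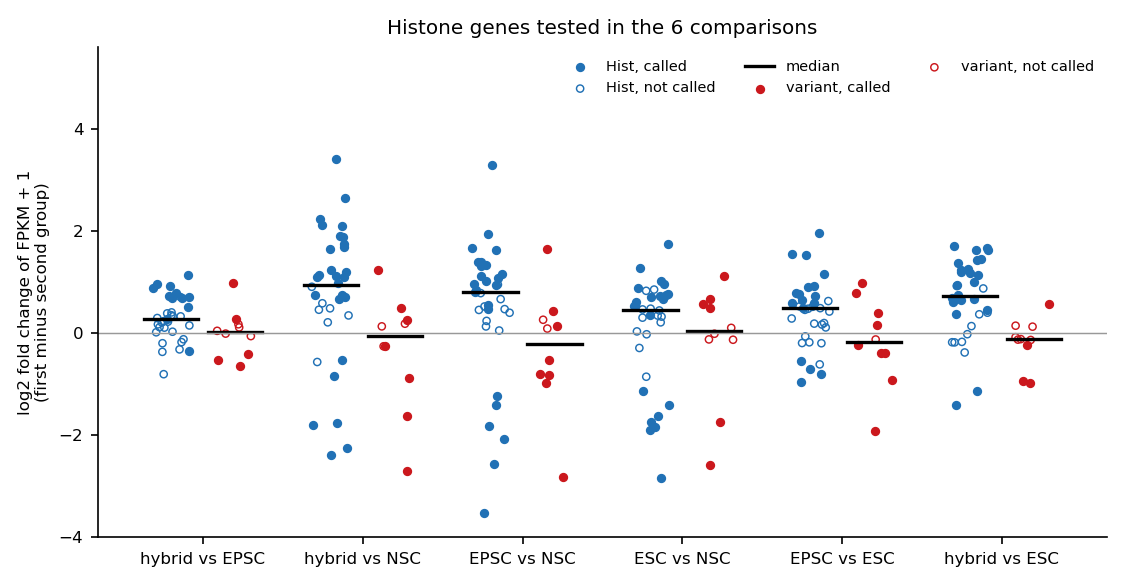
log2 fold changes of FPKM + 1 (first named group minus second) for the 34 Hist genes (blue) and 10 variant genes (red) that were tested, in each of the 6 comparisons. Filled points were called by limma, open points were not, and black bars are medians, which lie at 0.28 to 0.95 for Hist genes and −0.22 to 0.04 for variant genes.

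Both hybrid libraries lay above all 4 parental libraries for 11 of the 34 Hist genes (32.4%, against 18.7% of all genes tested), and below all 4 for none (against 16.2%). The 11 were Hist1h1a, Hist1h2ae, Hist1h2ak, Hist1h2bb, Hist1h2be, Hist1h2bg, Hist1h2bk, Hist1h2bm, Hist1h3a, Hist1h3h and Hist1h4b, and all had hybrid means under 10 FPKM. Hist1h2bb and Hist1h2be passed the filter through hybrid cells alone, which favours a place above the parents. The 32.4% therefore describes the genes that passed and is no test against all genes. Hist1h1c and Hist1h2bc, the Hist genes with the highest NSC levels, lay between the parents. After scaling, 8 Hist genes lay above all 4 (against 13.6% of all genes) and 2, Hist1h2af and Hist1h4i, below (against 22.4%). The 3 no longer above were Hist1h1a, Hist1h2be and Hist1h2bg. Among the variants, H2afx and H3f3a were above all 4 parental libraries in FPKM but below NSCs after scaling, and H2afy and H2afy2 were below all 4 on both scales.

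With a rule on size alone, group means more than 3 times apart with the upper one above 3 FPKM, no histone gene differed between hybrid cells and EPSCs (0.866% of the 24354 genes did), although limma called 17 of the 44 tested (beside 44.4% of all genes), and 20 had an unadjusted p under 0.05 (beside 6961 of 13239 genes). Without EPSC replicate 1 the rule gave 1 histone gene here, and without EPSC replicate 2 it gave 3. The rule gave 14 histone genes for hybrid cells against NSCs (15.8% of all genes), 9 for EPSCs against NSCs (15.6%), 8 for ESCs against NSCs (15.0%), 3 for EPSCs against ESCs (2.57%, and 6 histone genes without EPSC replicate 1) and 9 for hybrid cells against ESCs (3.63%). With both thresholds at 2 and in the same order of comparisons it gave 7 (3.12% of all genes), 21 (26.1%), 21 (25.7%), 13 (24.5%), 10 (7.07%) and 14 (8.93%). With thresholds of 3 after scaling it gave 0 (1.06%), 19 (20.6%), 18 (20.1%), 11 (19.5%), 6 (3.32%) and 12 (4.63%).

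The variant genes were ruled by a few members. H2afz encodes H2A.Z, the variant found at promoters and enhancers, and had the highest level of all histone genes in every library but NSC replicate 2, where H3f3b did. H2afz was at 1284 and 1119 FPKM in EPSCs, 875 and 921 in hybrid cells, 610 and 598 in ESCs, and 397 and 366 in NSCs, with no overlap of groups. EPSCs had 3.15 times the NSC level and 1.99 times the ESC level. The log2 fold change was 1.65 ± 0.08 (adjusted p = 5.11e-07 in limma) against NSCs and 0.99 ± 0.08 (adjusted p = 5.73e-05) against ESCs. Hybrid cells were below EPSCs (−0.42 ± 0.08, adjusted p = 0.00528), a call lost where the fit held the 2 groups alone (0.0535). After scaling, the mean of H2afz was still highest in EPSCs and lowest in NSCs. The ratio of 3.15 becomes smaller on that scale, because FPKM summed to less in the NSC libraries. For ESCs against NSCs the change of 0.66 became 0.11 after scaling and 0.08 after quantile normalization. H2afv, which encodes the other H2A.Z, ran the other way, at 48.9 and 47.0 in EPSCs, 54.0 and 62.2 in hybrid cells, 61.9 and 65.0 in ESCs, and 73.1 and 66.1 in NSCs. The ratio of H2afz to H2afv was 26.2 and 23.8 in EPSCs, 16.2 and 14.8 in hybrid cells, 9.85 and 9.20 in ESCs, and 5.43 and 5.53 in NSCs, and no 2 groups overlapped in it.

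H2afx encodes H2AX, which is phosphorylated at DNA breaks. It was at 391 and 409 FPKM in ESCs, 200 and 218 in hybrid cells, 183 and 184 in NSCs, and 98.0 and 114 in EPSCs. EPSCs had the lowest and ESCs the highest level without overlap, the reverse of H2afz between these lines. For EPSCs against ESCs the log2 fold change was −1.91 ± 0.08 with an adjusted p of 4.06e-06 in limma, and for hybrid cells against EPSCs it was 0.98 ± 0.08 with an adjusted p of 0.000246, both called under all 16 alternatives. Hybrid cells and NSCs differed by 0.18 with an adjusted p of 0.0616, and by −0.44 after scaling. H2afx also carries the stem-loop printed above, with 822 annotated bases beyond it.

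The macroH2A genes H2afy and H2afy2, whose products carry a large domain beside the histone fold and mark silent chromatin, differed from each other. H2afy2 was at 37.2 and 38.9 FPKM in NSCs, 18.8 and 19.2 in EPSCs, 10.2 and 13.5 in hybrid cells, and 11.5 and 9.85 in ESCs. NSCs stood alone at the top and EPSCs alone in the middle, whereas hybrid cells and ESCs overlapped. The limma adjusted p was 7.01e-06 for hybrid cells against NSCs (−1.62 ± 0.12 log2), 0.00539 for hybrid cells against EPSCs (−0.65 ± 0.12) and 0.00132 for EPSCs against ESCs (0.78 ± 0.12). H2afy was more even, with no call against NSCs and the highest mean in EPSCs (in NSCs after scaling), at 109 and 112 in NSCs, 131 and 134 in EPSCs, 78.4 and 108 in hybrid cells, and 100 and 102 in ESCs. Its hybrid value against EPSCs (−0.52 ± 0.13, adjusted p = 0.0157) was at 0.0523 and 0.0601 without EPSC replicates 1 and 2. The ratio of H2afy to H2afy2 was 2.93 and 2.87 in NSCs and 6.97 to 10.4 in the other libraries.

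H3f3a and H3f3b encode the same protein, H3.3, which is placed outside replication. H3f3b was at 370 and 363 FPKM in ESCs, 358 and 382 in NSCs, 423 and 394 in EPSCs, and 402 and 409 in hybrid cells. Before scaling, this was the narrowest range of the abundant histone genes. The log2 difference of H3f3b between hybrid cells and EPSCs was −0.01, with a 95% interval from −0.15 to 0.13. H3f3a was at 394 and 385 in ESCs, 272 and 284 in NSCs, 308 and 284 in EPSCs, and 354 and 313 in hybrid cells. Directions against NSCs depended on the scale: H3f3a in ESCs was 0.49 (adjusted p = 0.000395 in limma) but −0.06 after scaling and 0.06 after quantile normalization. H3f3a in hybrid cells was 0.26 (adjusted p = 0.0107) but −0.36 after scaling and −0.41 after quantile normalization, and H3f3b in EPSCs was 0.14 (adjusted p = 0.0497) but −0.47 and −0.60. The adjusted p of H3f3a was 0.0684 without NSC replicate 1 and 0.0586 without hybrid replicate 1. That of H3f3b was 0.22 without EPSC replicate 1, 0.234 without NSC replicate 1, 0.083 and 0.0834 without ESC replicates 1 and 2, and 0.0602 and 0.0603 without hybrid replicates 1 and 2. With the replicate number as a block, the limma adjusted p of H3f3b in EPSCs against NSCs was 0.059. In a fit of the 2 groups alone it was 0.117. The ratio of H3f3b to H3f3a does not depend on that scale. It was 0.940 and 0.943 in ESCs, 1.32 and 1.35 in NSCs, 1.38 and 1.39 in EPSCs, and 1.13 and 1.31 in hybrid cells, so that ESCs were the only group below 1.

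The linker histones H1f0 and H1fx bind the DNA between nucleosomes, and H1f0 is known to accumulate in differentiated cells. H1f0 was at 92.0 and 92.0 FPKM in NSCs and at 11.6 to 15.0 in the 6 other libraries. The log2 fold change was −2.81 ± 0.07 for EPSCs (adjusted p = 2.5e-08 in limma), −2.70 ± 0.07 for hybrid cells (3.2e-08) and −2.58 ± 0.07 for ESCs (3.87e-08) against NSCs. Hybrid cells and EPSCs differed by 0.11, with a 95% interval from −0.06 to 0.29. H1f0 and Hist1h1c were thus both highest in NSCs, and H1f0 made up 49.0% and 51.0% of all H1 FPKM there against 23.1% to 33.1% elsewhere. H1fx was at 33.7 and 39.8 in ESCs, 39.1 and 29.7 in NSCs, 17.6 and 20.4 in EPSCs, and 15.0 and 22.0 in hybrid cells, and the groups on LCDM medium were both called below ESCs (adjusted p = 0.00505 and 0.00332).

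H2afj, the gene of H2A.J, was at 38.4 and 39.0 FPKM in ESCs, 29.1 and 22.9 in NSCs, 35.6 and 35.1 in EPSCs, and 33.7 and 39.6 in hybrid cells. Its calls against NSCs (0.44 to 0.57 log2) were lost after scaling, where the values were −0.16, −0.12 and 0.03. Over the 10 tested variants the median log2 difference against NSCs was −0.06 for hybrid cells, −0.22 for EPSCs and 0.04 for ESCs, and −0.68, −0.83 and −0.50 after scaling (−0.23 for ESCs after quantile normalization). Called variants numbered 7 for hybrid cells against NSCs (3 higher, 4 lower), 8 for EPSCs (3 and 5) and 6 for ESCs (4 and 2), beside 86.5%, 86.2% and 84.7% of all genes called. They numbered 9 for EPSCs against ESCs (4 and 5) and 4 for hybrid cells against ESCs (1 and 3), beside 61.0% and 65.5% of all genes. Hybrid cells against EPSCs had 5 (2 and 3, beside 44.4% of all genes), against 3 without EPSC replicate 1, 3 without EPSC replicate 2 and 2 in a fit of these groups alone.

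**Figure D4:**
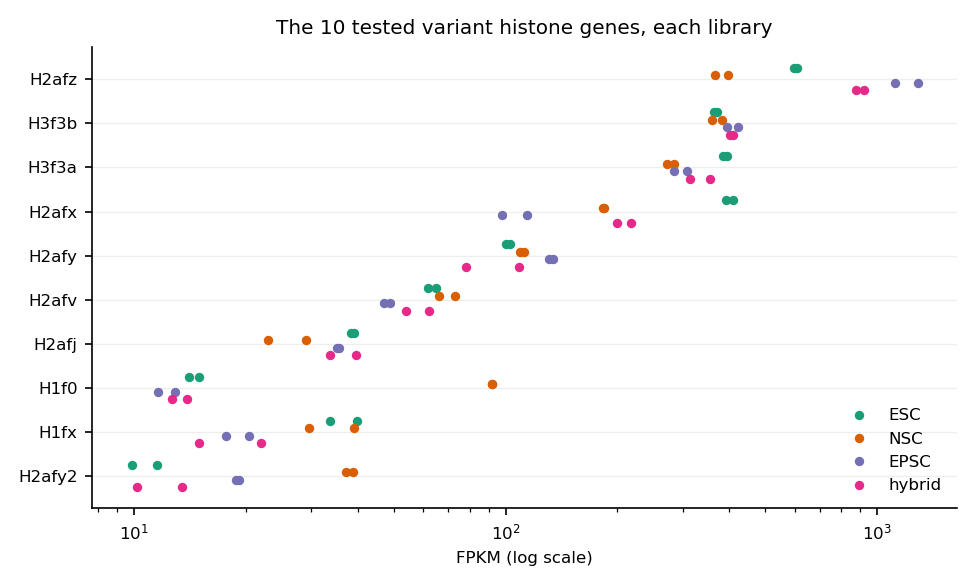
FPKM on a log axis of the 10 tested variant genes (1 row a gene, 1 point a library, coloured by group). H1f0 and H2afy2 have their NSC points apart on the right, H2afz its EPSC points, and H2afx its ESC points on the right and EPSC points on the left.

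The remaining members were low or listed at 0. Of the Hist genes, 33 did not pass the filter, 5 of them (Hist1h2ao, Hist1h2ap, Hist1h2bq, Hist1h4m and Hist1h4n) listed at 0 in all 8 libraries. In each of these 5, over 80% of the 100-base windows of the transcript also occur in transcripts of other genes, as in 7 of the 62 Hist genes with a value. Some windows were shared in 60 of 67 Hist genes and over 50% of them in 24, so that the values of single low genes depend on how reads with several places were assigned, which is not given in the sources used here. For Hist1h3h and Hist1h2bk, named above, the shared part was 92.0% and 70.8%, for Hist1h2ag 76.2%, for Hist1h2af 65.3% and for Hist1h4k 64.3%. Among the variants H2afz had the highest share, 29.7%. The share was 5.07% for Hist1h1c, 15.1% for Hist1h4i, 25.4% for Hist1h2bc and 28.4% for Hist1h3c. The variants H1fnt, H2afb2, H2afb3 and the pseudogene H2afy3 were listed at 0 throughout.

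Germ line histones, which replace others in sperm or oocytes, stayed near the floor. Hist1h1t was at most 0.0835 FPKM, Hist1h2aa 0.355, Hist1h2ba 0.591, H1foo 0.0906 and H2afb1 0.417. Hist1h2ba was listed above 0 in both NSC and both hybrid libraries and H2afb1 in both hybrid libraries alone, at levels of a few fragments.

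The Hist genes differ in where their annotated transcripts end, and this was set beside their levels. In 23 genes the GENCODE transcript runs 100 bases or more beyond the hairpin, and 3 of these (Hist1h1c, Hist1h4i and Hist3h2a) reached 10 FPKM in a group. In 22 genes it ends within 100 bases of the hairpin, and 1 of these, Hist1h3c, did. The abundant Hist1h2bc is one of 4 genes with no hairpin in a transcript that goes on for 100 bases or more after the coding part, and it is spliced from 2 exons. In the group with short ends, the NSC median was 0.0893 FPKM, that of ESCs 0.478, that of EPSCs 1.01 and that of hybrid cells 1.31. With long ends beyond the hairpin, the medians in this order were 0.520, 0.459, 0.619 and 0.895. In 17 genes without a hairpin and with under 100 bases after the coding part, they were 0.234, 0.550, 0.946 and 0.725. In the 4 without a hairpin and with longer ends, they were 2.42, 0.760, 0.462 and 0.626. Among those tested, NSCs had the highest mean for 0 of 13 genes with short ends and 3 of 11 with long ends beyond the hairpin. Without a hairpin, they had it for 2 of 2 with longer ends and 1 of 8 with under 100 bases. The latter was Hist1h4k, with no annotated end beyond the coding part. Over all genes tested, NSCs were highest for 39.7%. The genes with short ends include Hist1h2ao, Hist1h2ap, Hist1h4m and Hist1h4n, listed at 0 throughout and with most windows shared. The part of shared reads and of the filter in these medians and counts was not tested. FPKM divides by the annotated length, so a transcript annotated as too short or too long shifts the level.

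**Figure D5:**
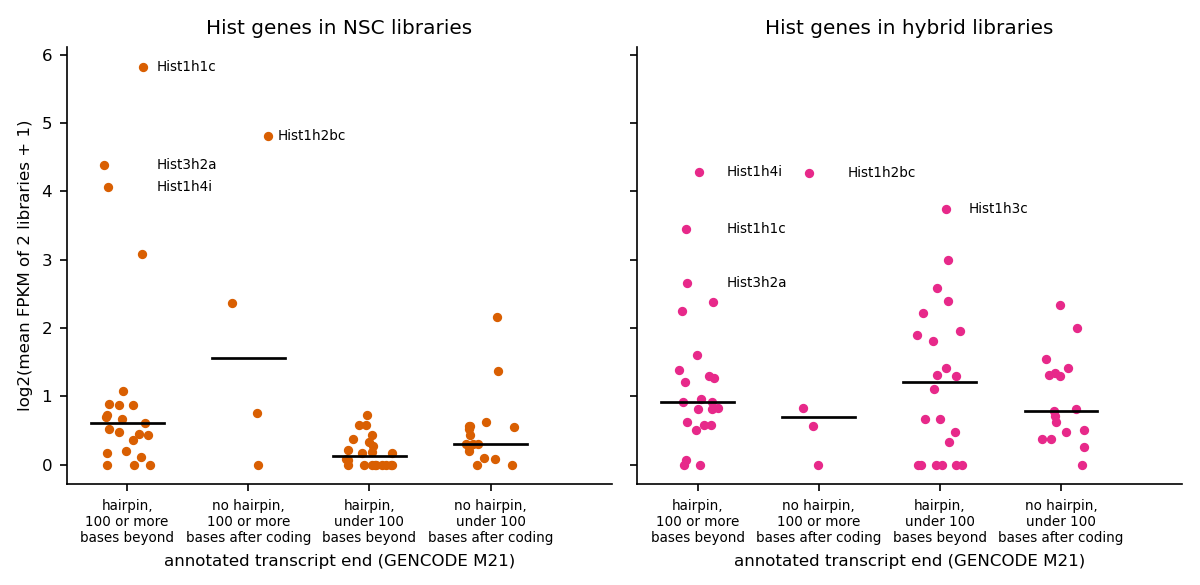
log2(mean FPKM + 1) of the 66 coding Hist genes in NSCs (left) and hybrid cells (right), divided by how their GENCODE M21 transcript ends (1 point a gene, black bars are medians). In NSCs the genes with short ends past a hairpin lie at the bottom, with a median of 0.0893 FPKM, and in hybrid cells at a median of 1.31 FPKM.

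Neighbours on opposite strands could differ in level, and the pairs with the largest ratios of means are among those below. The ratio was 1.29 for Hist1h2bf with Hist1h2ad, 1.39 for Hist1h2bl with Hist1h2ai and 1.92 for Hist1h2bh with Hist1h3f. It was 2.04 for Hist1h2ae with Hist1h2bg and 2.33 for Hist1h2an with Hist1h2bp. Hist1h2ak with Hist1h2bn stood at 3.07, Hist1h2ba with Hist1h2aa at 3.49 and Hist1h2ah with Hist1h2bk at 19.7. Hist1h2bc was at 6.44 to 30.0 FPKM over the 8 libraries and Hist1h2ac, whose start lies 251 bases away, at 0 to 0.771. Hist3h2a was at 2.33 to 20.2 and the pseudogene facing it, Hist3h2bb-ps, was above 0 in 1 library alone, at 0.106. Hist2h2be and Hist2h2ac were apart in NSCs, at 4.36 and 3.92 against 0 and 0, but not in EPSCs, at 0.618 and 0.306 against 0.541 and 0.339. Hist1h2ag, with a mean of 1.41 FPKM and most of its windows shared, and Hist1h2bj, with 1.58, are an H2A and an H2B gene that were both lowest in NSCs.

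The factors that make and carry histones were followed as lists, whose counts against NSCs stand beside 86.5% of all genes called for hybrid cells (44.5% higher, 42.0% lower) and 86.2% for EPSCs. Of 13 genes for the 3′ processing of histone mRNA, 8 exceeded their NSC level in hybrid cells, 3 were lower and 2 not called (median 0.58 log2, −0.03 after scaling, beside −0.51 for all genes), and 3 were higher and 3 lower in hybrid cells than in EPSCs, beside 22.5% and 21.9% of all genes. Slbp, the stem-loop binder, was at 113 and 115 FPKM in EPSCs, 81.3 and 85.7 in hybrid cells, 78.8 and 83.1 in ESCs, and 43.8 and 43.7 in NSCs. Its log2 fold change was 1.36 ± 0.05 (adjusted p = 1.45e-07 in limma) for EPSCs against NSCs and −0.45 ± 0.05 (adjusted p = 0.000803) for hybrid cells against EPSCs. Zfp473, a zinc finger protein of the U7 processing complex, was at 0.571 and 0.474 in NSCs and 7.31 to 11.2 elsewhere. Lsm11, a U7 snRNP protein, and Eri1, an exonuclease that trims the stem-loop end, were the opposite, at 4.01 and 4.36 and at 25.5 and 28.1 in NSCs and at most 2.43 and 18.8 in the other libraries.

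Of 8 genes for histone transcription in S phase, 7 were higher in hybrid cells and 1 in NSCs (median 0.69, and 0.10 after scaling), and the same counts held for EPSCs (0.67, and 0.09 after scaling). Ccne1, the cyclin E that activates the histone regulator NPAT, was at 17.5 and 16.8 FPKM in NSCs and 77.7 to 114 elsewhere, and Ccne2 was at 17.8 and 20.1 in NSCs and 5.10 to 13.9 elsewhere. Of 21 histone chaperones, 14 were higher and 3 lower in the hybrid than in the NSC libraries, with a median of 0.46 (−0.15 after scaling). Nasp, a chaperone of H3 and H4, was at 114 and 113 in NSCs, 326 and 329 in ESCs, 382 and 345 in EPSCs, and 460 and 387 in hybrid cells, whereas Anp32e, which removes H2A.Z, was at 166 and 169 in NSCs and at 59.5 to 92.2 elsewhere. Of 22 DNA replication genes, 18 were higher and 3 lower there with a median of 0.74 (0.12 after scaling). Of 12 genes of G2 and M phase, 5 were higher and 4 lower with a median of 0.12 (−0.50 after scaling).

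FPKM divides by transcript length, so that few fragments on a short RNA give a high value. Small RNAs without a tail were summed as a description, and how far they measure RNA that escaped the selection was not tested. Of 131 such symbols, 44 had a value, and their sum ran from 1327 to 5075 FPKM in the ESC libraries, 35.8 to 1102 in NSCs, 805 to 997 in EPSCs, and 823 to 5983 in hybrid cells. It thus differed widely between the libraries of ESCs, of NSCs and of hybrid cells, and less between those of EPSCs. Their part in the Hist values was not tested.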

How the data were processed

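Total RNA of 8 libraries was selected with poly-T beads and prepared with a stranded mRNA kit, and the authors trimmed reads with skewer, aligned them to mm10 with STAR 2.7.9a and deposited FPKM per gene from Cuffnorm (Cufflinks 2.2.1). The annotation, strand setting, treatment of reads with several places and library normalization are not given in the sources used here. Of the columns, 0 belonged to other samples. The members and lists were chosen with earlier results of these data known.

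FPKM were compared with limma 3.58.1 in R 4.3.3 (lmFit, contrasts, eBayes with trend) on log2(FPKM + 1), with 4 groups in one fit of 8 libraries (4 residual and 3.25 prior degrees of freedom), over 13239 genes with a mean of at least 1 in a group. Tests were two-sided and p-values were Benjamini-Hochberg adjusted over these genes. The fit was tested on simulated data. Python 3.11.15, pandas 2.3.3 and numpy 2.4.6 were used for the rest.

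Members were named by symbol, and 81 of 83 were matched to RefSeq (73 with a promoter). Transcripts, ends and positions are from GENCODE M21. Named with values were the tested variants, the 20 most abundant Hist genes, the 3 called Hist genes with the largest change in each direction of a comparison, and the germ line histones. Other genes named were chosen after their values were seen. Depth was derived from steps between FPKM values of 2247 genes with an assumed fragment of 200 bases.

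Alternatives were another pseudocount (0.1), other filters, no trend, scaling to a sum of 1000000, quantile normalization, 2 groups alone, the replicate number as a block, and each library left out.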

Additional observations from a re-analysis of the deposited data

How the results depend on the processing

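Values near the floor, 2 libraries a group and reads shared between near-identical genes limit all single low genes. Of the named genes, H3f3a in hybrid cells against NSCs turned to −0.41 (quantile normalization) and −0.36 (scaling), and H3f3b in EPSCs against NSCs to −0.60 and −0.47, in both cases with a call in each direction. The cause of the changes below was not tested.

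For hybrid cells against EPSCs, the 12 called Hist genes became 4 with the 2 groups alone and 6 with a pseudocount of 0.1, and the 5 called variants became 2 with the 2 groups alone. With both thresholds of the size rule at 2, histone genes past it numbered 7 for hybrid cells against EPSCs (3.12% of all genes), 21 for EPSCs against NSCs (25.7%), 13 for ESCs against NSCs (24.5%), 10 for EPSCs against ESCs (7.07%) and 14 for hybrid cells against ESCs (8.93%), and after scaling 18 for EPSCs against NSCs (20.1%) and 6 for EPSCs against ESCs (3.32%). Summed Hist FPKM without Hist1h1c, the most abundant gene, came to 59.1 (ESCs), 95.5 (NSCs), 103 (EPSCs) and 133 (hybrid cells), and the full sum after scaling to 108.5, 363.8, 168.2 and 224.4. The ratio of Hist to variant FPKM without that gene was 0.0292 in ESCs, 0.0603 in NSCs and 0.0642 in hybrid cells, from 0.0326, 0.0954 and 0.0690.

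With each library left out in turn, called Hist genes ranged from 6 to 14 for hybrid cells against EPSCs and from 10 to 19 for EPSCs against ESCs, called variants from 3 to 5 for hybrid cells against EPSCs, and genes past the size rule from 0 to 3 and from 2 to 6 for the same comparisons.

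Deviations of libraries with the same replicate number correlated at 0.280 for hybrid cells against EPSCs. In the other comparisons the correlations were −0.112 to 0.0693. With the replicate number as a block, called Hist genes were 12, 28, 26, 23, 17 and 23 and called variants 5, 8, 7, 6, 8 and 4 for hybrid cells against EPSCs, hybrid cells against NSCs, EPSCs against NSCs, ESCs against NSCs, EPSCs against ESCs and hybrid cells against ESCs. Crossing the NSC numbers, chosen after seeing the data, gave 24 Hist genes and 6 variants for ESCs against NSCs. The scaled sums of variants and of the Hist genes without the 4 most abundant, and the scaled positions of hybrid cells and order of groups, were also added after seeing the data.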
